A study of Homo sapiens with 4 samples.

Results

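Squamous differentiation genes encode proteins of the cornified envelope, the crosslinked protein shell that replaces the plasma membrane of keratinocytes at the end of their differentiation, together with proteins that build or regulate it. The group was chosen by symbol and listed 10 genes, of which 8 had a value in the table of 16811 genes: *IVL*, *SPRR1A*, *SPRR1B*, *TGM1*, *CSTA*, *SFN*, *SBSN* and *CNFN*. *SPRR3* and *LGALS7B* had no row under these symbols and were not analysed here. In stratified epithelia the envelope starts with scaffold proteins such as involucrin (*IVL*), to which small proline-rich proteins (*SPRR* genes) and cystatin A (*CSTA*) are joined by transglutaminases such as *TGM1*. Mammary epithelial cells do not normally cornify, but basal-type mammary lines in culture express part of this program.

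RNA-seq had been made from MCF12A, a non-tumorigenic human mammary epithelial line that the labels call a breast cancer cell line, with 2 wild-type libraries and 2 libraries of cells labelled *C1orf132* KO. In the edited cells CRISPR/Cas9 had been used to remove p2, a promoter of *C1orf132*, the host gene of miR-29b2 and miR-29c, and colonies had been raised from sorted single cells. The sources used here do not say whether both edited libraries came from one colony, so the deletion and a difference between colonies cannot be told apart. All cells were grown in the same medium with horse serum, EGF, hydrocortisone, cholera toxin and insulin, and *C1orf132* itself was not analysed here. The values are an expression signal normalized by the authors. Levels were taken to be per transcript length, which the sources used here do not state, and on that footing were set side by side between genes. A single read on 1 kb of transcript corresponded to an estimated 0.102 to 0.125 of these units, depending on the library. In bulk RNA, fewer cells expressing a gene and less RNA per cell cannot be told apart.

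The sequences just upstream of 5 of these genes are shown because they lie beside the genes with the most negative fold changes (*SPRR1A*, *SPRR1B*, *IVL*), one without a clear difference (*SBSN*) and the one with higher values in edited cells (*CNFN*). Each is the 250 bases before the gene start, 5′ to 3′ on the gene's strand, from RefSeq on GRCh38, the build named in the submitters' processing notes. They lie at chr1:152983831-152984080, chr1:153030953-153031202 and chr1:152908296-152908545 on the plus strand, and at chr19:35528312-35528561 and chr19:42390298-42390547 on the minus strand. Capitals mark TGANTCA, with N any base, a loose pattern for the site of AP-1, the FOS and JUN dimer that binds many keratinocyte gene promoters.
*SPRR1A*: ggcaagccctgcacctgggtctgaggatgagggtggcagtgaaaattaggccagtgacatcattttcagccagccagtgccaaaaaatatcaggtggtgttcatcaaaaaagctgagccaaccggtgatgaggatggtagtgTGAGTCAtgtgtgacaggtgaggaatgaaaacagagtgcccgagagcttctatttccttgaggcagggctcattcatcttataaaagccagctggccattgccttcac
*SPRR1B*: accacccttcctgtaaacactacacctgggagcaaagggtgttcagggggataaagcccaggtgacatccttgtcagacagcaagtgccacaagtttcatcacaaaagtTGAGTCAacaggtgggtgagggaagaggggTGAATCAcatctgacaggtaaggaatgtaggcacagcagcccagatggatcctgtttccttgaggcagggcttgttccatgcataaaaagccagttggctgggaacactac
*IVL*: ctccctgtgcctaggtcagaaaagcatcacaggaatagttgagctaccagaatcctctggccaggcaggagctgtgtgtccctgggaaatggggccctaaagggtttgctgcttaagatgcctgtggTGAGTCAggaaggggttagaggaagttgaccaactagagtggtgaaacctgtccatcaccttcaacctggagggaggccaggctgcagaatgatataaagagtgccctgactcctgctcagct
*SBSN*: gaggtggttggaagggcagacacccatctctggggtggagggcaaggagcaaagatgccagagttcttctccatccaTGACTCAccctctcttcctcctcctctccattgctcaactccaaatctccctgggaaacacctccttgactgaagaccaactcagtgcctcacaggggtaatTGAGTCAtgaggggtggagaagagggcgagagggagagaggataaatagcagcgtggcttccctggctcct
*CNFN*: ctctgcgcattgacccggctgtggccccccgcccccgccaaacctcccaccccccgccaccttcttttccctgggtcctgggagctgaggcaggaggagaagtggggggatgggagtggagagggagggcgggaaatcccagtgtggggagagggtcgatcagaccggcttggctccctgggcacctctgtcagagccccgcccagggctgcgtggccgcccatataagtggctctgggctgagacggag
TGANTCA reads the same on both strands and was found in 7 of the 8 promoters of the group with an entry in the table, those of *SPRR3* and *LGALS7B* included, against 6.60% of 27305 promoters of the same length. *CSTA* and *TGM1* had no entry. *SPRR1A*, *SPRR1B* and *SPRR3* belong to one gene family, so their promoters are not separate cases in this or the later motif counts. The match began 108 bases before the start of *SPRR1A* and 123 bases before that of *IVL*. *SPRR1B* held 2 matches, 141 and 111 bases before its start, and *SBSN* held 2, at 173 and 71 bases. Of the 6 measured genes with an entry, 5 held a match (*SPRR1A*, *SPRR1B*, *IVL*, *SFN* and *SBSN*), and the sixth was *CNFN*. The only match of *SFN* was TGATTCA and the second of *SPRR1B* was TGAATCA, while the other matches of measured genes had G or C in the middle. Of these 5 genes only *SPRR1A* and *SPRR1B* were lower at an adjusted p under 0.05 (limma). A relation between the matches and the fold changes was not tested. CAGGTG, the E-box bound by ZEB and SNAIL factors, searched on both strands, occurred 3 times in *SPRR1A* and 3 times in *SPRR1B*, and in 5 of 8 promoters of the group against 17.5% of all. The GC box GGGCGG occurred 4 times in *CNFN* and in 3 of 8 promoters of the group against 42.3% of all. TATAAA occurred in 3 of 8 against 11.1%, and both were searched on both strands. Among the 6 measured genes with an entry, CAGGTG was in 3 (*SPRR1A*, *SPRR1B* and *SFN*). GGGCGG was in 2 of these 6 (*SFN* and *CNFN*), and TATAAA in 2 (*IVL* and *SPRR1A*). No AP-1 match in these promoters overlapped another of the motifs. A match is a string of letters and not a measured binding site.

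Of the 8 measured genes, 4 were lower in edited cells at an adjusted p under 0.05 and 0 were higher (limma, Benjamini-Hochberg over all genes tested). These were *SPRR1B*, *SPRR1A*, *TGM1* and *CSTA*. The other 4 (*IVL*, *SFN*, *SBSN* and *CNFN*) did not pass. Of the 9590 genes whose mean over the libraries reached 10, 7.09% passed, 4.2% lower and 2.89% higher. The 3 weaker genes *IVL*, *SPRR1A* and *SBSN* were tested among all 16811 genes, of which 4.73% passed, 3.4% lower and 1.33% higher. At an adjusted p under 0.001, 0 of the 8 genes passed, against 0.0104% of the 9590 genes. The median log2 fold change over the 8 genes was -2.02, against 0.011 over all 16811 genes. Setting *SPRR1A* to 3 reads in each edited library (-2.69) could not move this median, which lies between *TGM1* and *CSTA*. Fold changes are differences of log2(value + 1), so they understate the change of weak genes. The edited and wild-type values did not overlap in 7 of the 8 genes, 6 of them lower and 1 higher, while 61.6% of all genes showed no overlap, 30.2% lower and 31.4% higher. Among the 9590 better expressed genes these shares were 65.1%, 26.9% and 38.3%. An exact permutation of 2 against 2 libraries cannot give a two-sided p below 0.333, so each call rests on the variance that limma shares across genes. With either wild-type library left out, 0 of the 8 genes passed, and only 47 (without replicate 1) and 4 (without replicate 2) of the 9590 genes did.

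**Figure D1:**
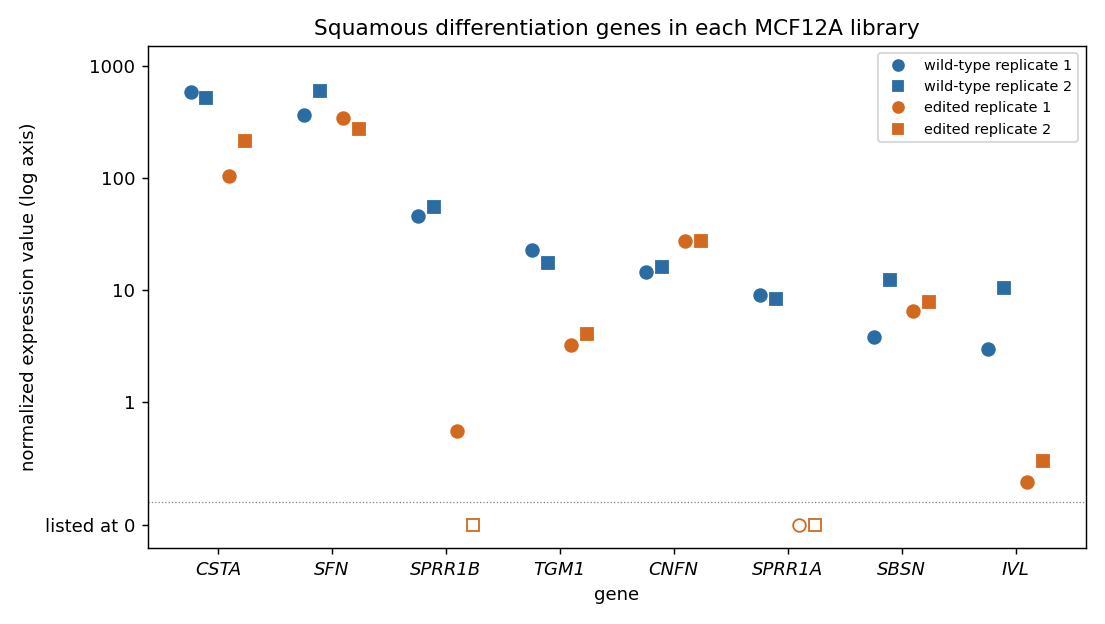
Normalized expression value (log axis) of the 8 measured genes in each of the 4 libraries, with wild-type libraries in blue and edited libraries in orange, and open symbols for values listed at 0. Both edited values lie below both wild-type values in 6 genes, above them in *CNFN*, and between them in *SBSN*.

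In wild-type cells the group spanned a wide range of levels. *CSTA* (547 ± 43.9, SD, n = 2) and *SFN* (480 ± 164, SD, n = 2) were the most abundant, and their ranges overlapped. *SPRR1B* followed at 50.1 ± 6.72, then *TGM1* at 20.0 ± 3.76 and *CNFN* at 15.3 ± 1.17 (SD, n = 2), with no overlap between neighbours in this order. *SPRR1A* (8.73 ± 0.54), *SBSN* (8.07 ± 5.999) and *IVL* (6.75 ± 5.32) came last, and their ranges overlapped. Summed over the 8 genes, the values were 1041 and 1232 in the wild-type and 484 and 525 in the edited libraries. *CSTA* and *SFN* held most of each sum, and without them it was 98.4 and 120 in the wild-type and 37.9 and 39.9 in the edited libraries.

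*SPRR1B* (chr1:153031203-153032900) encodes cornifin-B, a small proline-rich protein crosslinked into the envelope. It had values of 45.4 and 54.9 in wild-type replicates 1 and 2 and of 0.553 and 0 in edited replicates 1 and 2. The edited values correspond to about 3 and 0 reads, against about 225 and 299 in the wild-type libraries. Both edited libraries were thus close to or at the limit of detection, and its edited level was 0.552% of the wild-type level, or 1.10% without edited replicate 2 and 0% without edited replicate 1. On the log2 scale the change was -5.35 ± 0.35 (SE), with an adjusted p of 0.00328 (limma). From the estimated reads the wild-type level was 192-fold higher, with an exact 95% interval of 65.5 to 936 that covers counting error only.

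*SPRR1A* (chr1:152984081-152985814) encodes the closely related cornifin-A. It was listed at 9.11 and 8.34 in wild-type replicates 1 and 2, about 47 and 48 reads, and at 0 in both edited libraries. No fold is given against a group at 0. The fitted change of -3.28 ± 0.23 (SE) on the log2 scale (adjusted p = 0.00939, limma) depends on the added pseudocount, and ran from -6.46 with a pseudocount of 0.1 to -1.46 with 5. Without edited replicate 1 the adjusted p was 0.0615. Transcripts of *SPRR1A* and *SPRR1B* (648 and 619 bases in GENCODE version 44) shared 0 stretches of 75 bases, the read length, with any other annotated gene. The canonical *LGALS7B* transcript shared 81.2% of such stretches with *LGALS7*, and neither gene was analysed here.

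*IVL* (chr1:152908546-152911886) encodes involucrin, the scaffold on which the envelope is assembled. Its values were 2.99 and 10.5 in wild-type replicates 1 and 2 and 0.197 and 0.301 in edited replicates 1 and 2. The wild-type replicates were far apart, but both lay above the edited libraries, in which the reads numbered about 4 and 6. The change of -2.44 ± 0.53 (SE) on the log2 scale did not pass the threshold (adjusted p = 0.0635, limma), and over the processing alternatives with all 4 libraries its adjusted p ranged from 0.0558 to 0.0992. The edited level was 3.68% of the wild-type level, from 2.36% without wild-type replicate 1 to 8.32% without wild-type replicate 2. Estimated reads gave a wild-type level 27.6-fold higher (exact 95% interval 14.8 to 58.3, counting error only).

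*CSTA* (chr3:122325248-122341969) encodes cystatin A, a cysteine protease inhibitor of the cytosol that is also built into the envelope. It was at 578 and 516 in the wild-type and at 104 and 211 in the edited libraries, so it stayed well expressed in edited cells. Both edited libraries lay below both wild-type libraries, and they differed from each other more than the wild-type libraries did. On the log2 scale the change was -1.87 ± 0.36 (SE), with an adjusted p of 0.0442 (limma). The call was close to the threshold: the adjusted p was 0.0528 when all 16811 genes were tested and 0.0533 without edited replicate 1. The edited level was 28.8% of the wild-type level, or 38.6% without edited replicate 1 and 19.0% without edited replicate 2.

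*TGM1* (chr14:24249114-24263177) encodes transglutaminase 1, the membrane-bound enzyme that crosslinks envelope proteins. Its values were 22.7 and 17.3 in the wild-type and 3.24 and 4.09 in the edited libraries, a 5.45-fold difference of the means. The groups were clearly apart, at about 78 and 110 reads after editing against 498 and 419 without. On the log2 scale the change was -2.16 ± 0.28 (SE), with an adjusted p of 0.0199 (limma). Genes on chromosome 14 were lower as a whole, with a median log2 fold change of -0.46 over 312 tested genes, against 0.087 over all 9590 tested genes. The chromosomes of the other 7 genes had medians of 0.063 (chromosome 1), 0.042 (chromosome 3) and 0.22 (chromosome 19). The part of the chromosome 14 shift in the *TGM1* difference was not tested.

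*SFN* (chr1:26863149-26864456) encodes 14-3-3 sigma, a p53 target that restrains cell cycle progression and is abundant in stratified epithelia. It had values of 364 and 597 in the wild-type libraries and of 342 and 274 in the edited libraries. The wild-type library with the lower value was near the edited libraries, and the change of -0.60 ± 0.30 (SE) on the log2 scale did not pass (adjusted p = 0.225, limma). *SFN* was thus retained at 64.2% of its wild-type level, or 51.7% and 84.7% without wild-type replicates 1 and 2. A list of 20 other p53 targets had a median log2 fold change of -0.00012, with 2 genes lower, 1 higher and 17 not passing. Among the 9590 genes tested with them 4.2% passed lower and 2.89% higher. In this list *DDB2*, a DNA damage recognition gene (-1.33, adjusted p = 0.0298), and the antiproliferative *BTG2* (-1.01, adjusted p = 0.0470) fell, and cyclin G1 (*CCNG1*, 1.29, adjusted p = 0.0371) rose (limma).

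*SBSN* (chr19:35523367-35528311) encodes suprabasin, a secreted protein of differentiating keratinocytes. It was at 3.83 and 12.3 in wild-type cells and 6.49 and 7.82 after editing, so the edited values lay between the wild-type values. On the log2 scale the change was 0.019 ± 0.50 (SE), with an adjusted p of 0.985 (limma), and this wide error leaves the direction unsettled.

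*CNFN* (chr19:42387019-42390297) encodes cornifelin, a component of the envelope. Unlike the other genes it was higher in both edited libraries, at 27.4 and 27.6 against 14.5 and 16.1 in the wild-type libraries. The replicates of each group were close together. The ratio of the means was 1.80, and the change of 0.81 ± 0.18 (SE) on the log2 scale narrowly missed the threshold (adjusted p = 0.0535, limma). Over the alternatives with all 4 libraries its adjusted p ranged from 0.0509 to 0.0901. In the direction of higher values 2.89% of the 9590 tested genes passed.

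**Figure D2:**
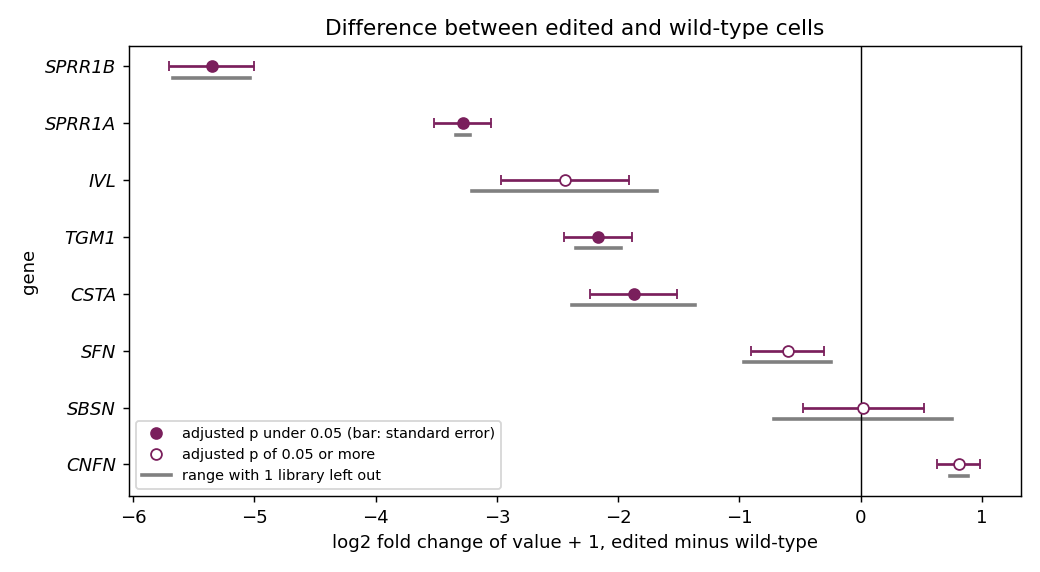
Log2 fold change of value + 1 (edited minus wild-type) for each of the 8 genes, with the limma standard error as bars, filled symbols for adjusted p under 0.05 and grey lines for the range with each library left out in turn. *SPRR1B* stands at -5.35, the grey line of *SBSN* crosses 0, and *CNFN* lies at 0.81.

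*IVL*, *SPRR1A* and *SPRR1B* lie in the epidermal differentiation complex, a cluster of envelope and S100 genes on chromosome 1. From *S100A11* to *S100A9* (chr1:152032506-153361023) RefSeq lists 49 protein-coding genes, and 14 genes of the interval had a value. Of the 11 that are not in the group, 4 were lower, 0 higher and 7 did not pass, and the median log2 fold change was -1.48. In 9 of these 11 genes the mean was under 10. Among all 16811 genes 3.4% passed lower and 1.33% higher, and among the 9590 better expressed genes 4.2% and 2.89%. *S100A9*, a calprotectin subunit, was at 6494 and 2350 in the wild-type and at 12.3 and 143 in the edited libraries (-6.48 ± 1.13, SE, on the log2 scale, adjusted p = 0.0379, limma). The peptidoglycan recognition genes *PGLYRP4* (-3.97, adjusted p = 0.0128) and *PGLYRP3* (-2.56, adjusted p = 0.0307) also fell (limma), and in edited replicate 1 both were listed at 0. *SPRR2D*, another small proline-rich gene, was at 1.95 and 1.72 in the wild-type and at 0 in both edited libraries (adjusted p = 0.0453, limma). *SPRR2* genes are near copies of each other, so their separate values are uncertain. At the other end of the interval *S100A11*, named as its boundary, was at 2277 and 2665 in the wild-type and 1727 and 2433 in the edited libraries, with overlapping groups (adjusted p = 0.499, limma).

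**Figure D3:**
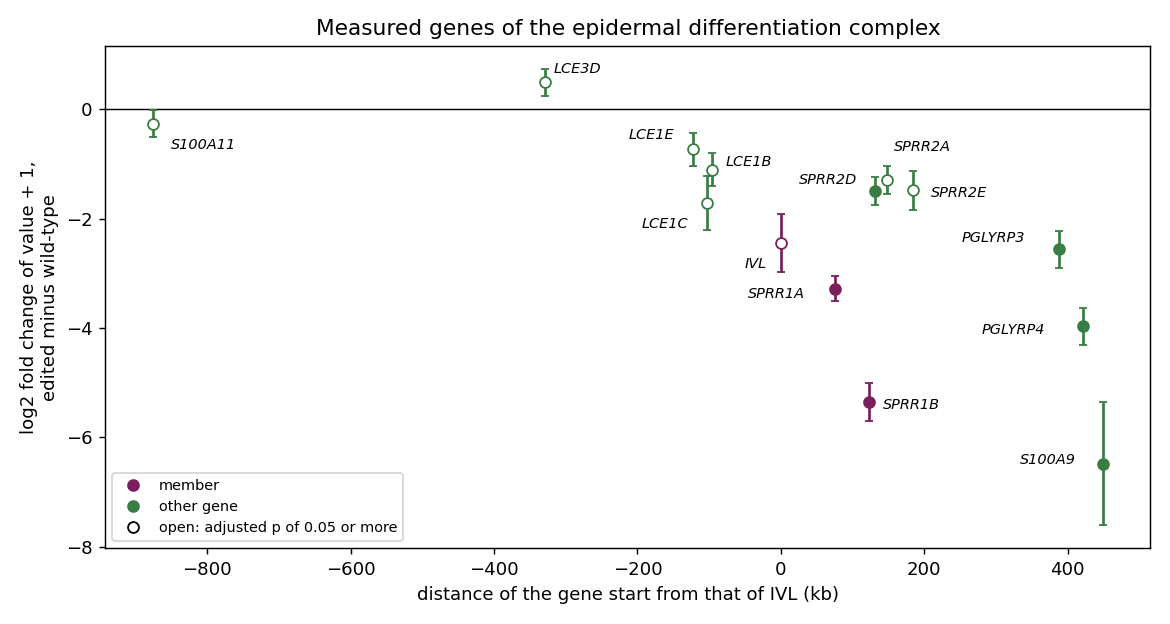
Log2 fold change of value + 1 (edited minus wild-type, bars are standard errors) of the 14 measured genes of the epidermal differentiation complex against the distance of their start from that of *IVL* in kb, with the 3 genes of the group in purple and open symbols for adjusted p of 0.05 or more. *S100A9* is lowest at -6.48, and *LCE3D* alone is above 0, at 0.49.

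Related genes were counted in lists that the group does not share. The counts are not separate from those of the interval above, since its *SPRR2* and *LCE* genes are also among the envelope proteins. Beside the counts of this and the following lists, 4.2% of the 9590 better expressed genes passed lower and 2.89% higher. Among all 16811 genes these shares were 3.4% and 1.33%. Of 52 other envelope proteins 20 had a value, and 4 of them were lower, 0 higher and 16 did not pass, with a median log2 fold change of -1.16 (-0.96 with the genes listed at 0 in edited cells set to 3 reads). The protease inhibitor *A2ML1* fell from 51.2 and 55.8 in the wild-type to 0.0156 and 0.0139 in the edited libraries (adjusted p = 0.00227, limma). Both edited values lie below the estimated value of a single read on its transcript of 5127 bases, so they are at the limit of detection. Sciellin (*SCEL*), an envelope precursor, was at 25.3 and 21.4 against 0.541 and 0.833 (adjusted p = 0.00865, limma). The desmosomal plakin periplakin (*PPL*), which starts the envelope with involucrin, was at 21.4 and 21.0 against 4.53 and 4.05 (adjusted p = 0.0148, limma).

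Of 21 cornification enzymes 15 had a value, and 5 were lower, 0 higher and 10 did not pass (median log2 fold change -1.52). The membrane serine proteases matriptase (*ST14*, -4.95, adjusted p = 0.00328) and prostasin (*PRSS8*, -5.29, adjusted p = 0.00183) fell the most in this list (limma). The ceramide synthase *CERS3* (-2.73, adjusted p = 0.0366) and the desquamation protease *KLK7* (-2.11, adjusted p = 0.0348) fell too (limma). The tissue transglutaminase *TGM2*, related to *TGM1*, was at 15.7 and 13.4 in the wild-type and 4.73 and 40.4 in the edited libraries and did not pass (adjusted p = 0.995, limma). It was named after its values were seen.

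Among squamous keratins 2 of the 8 with a value were lower, 0 higher and 6 did not pass (median log2 fold change -1.75). *KRT6B*, a keratin of activated keratinocytes, went from 208 and 183 in the wild-type to 3.87 and 17.3 in the edited libraries (adjusted p = 0.0223, limma), with the caution that *KRT6* genes are near copies. The more abundant *KRT6A* was at 1281 and 2135 in the wild-type and 450 and 1269 in the edited libraries and did not pass (adjusted p = 0.205, limma). *KRT6C* overlapped between the groups, and *KRT10* (0.30) and *KRT80* (0.65) had positive log2 fold changes without passing. These genes were named after their values were seen. *KRT17* went from 4947 and 5828 to 621 and 1738 (adjusted p = 0.0491, limma).

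Transcription factors of squamous differentiation were lower in 8 of the 21 with a value, with 0 higher and 13 not passing (median log2 fold change -1.42). The ETS factors *EHF* (87.1 and 134 against 0.470 and 0.315, adjusted p = 0.00183) and *ELF3* (681 and 633 against 50.7 and 35.1, adjusted p = 0.00328) fell in edited cells (limma). The grainyhead factors *GRHL2* (-4.64, adjusted p = 0.00653) and *GRHL1* (-3.54, adjusted p = 0.0138), which bind promoters of epithelial barrier genes, fell as well (limma). Of the AP-1 subunits listed, *FOSL1* was at 26.1 and 7.76 in the wild-type and 46.8 and 66.0 in the edited libraries (adjusted p = 0.0836, limma). *JUNB* was at 133 and 93.0 against 27.1 and 140, with overlapping groups (adjusted p = 0.464, limma). Both were named after their values were seen, and neither passed.

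**Figure D4:**
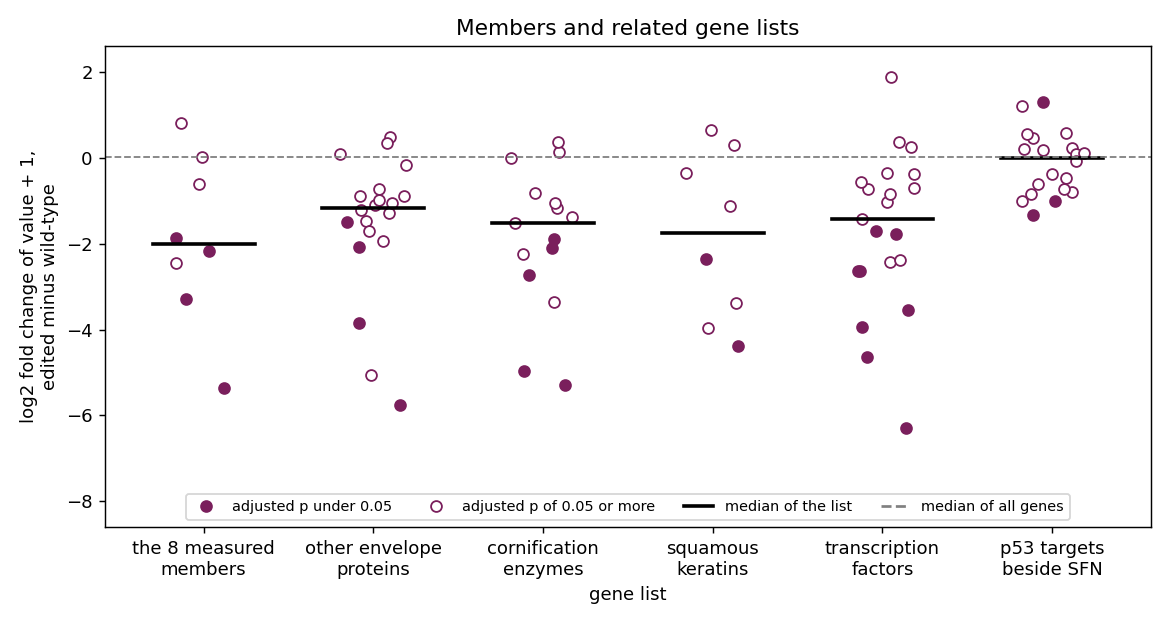
Log2 fold change of value + 1 (edited minus wild-type) of every gene with a value in the group and in 5 related lists, with black lines at list medians, a dashed line at the median of all genes and filled symbols for adjusted p under 0.05. Medians of the first 5 columns lie between -2.02 and -1.16, and that of the p53 targets at -0.00012.

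Markers of cell identity also differed between edited and wild-type cells. Basal mammary markers were lower in 5 of 15 genes, 0 higher and 10 not passing, and their summed value was 16451 to 24874 in the wild-type and 6332 to 9152 in the edited libraries. *KRT5* and *KRT17* held most of that sum. *KRT5*, named after its values were seen, was at 4590 and 11914 in the wild-type and 3514 and 3056 in the edited libraries and did not pass (adjusted p = 0.146, limma). In this list the desmoglein *DSG3* (-3.35, adjusted p = 0.00865), *TP63* (-2.65, adjusted p = 0.0284), the regulator of stratified epithelia, and the hemidesmosome collagen *COL17A1* (-1.75, adjusted p = 0.0405) fell beside *KRT17* (limma). *KRT17* and *TP63* are also counted above, among the squamous keratins and the transcription factors. Luminal mammary markers had 10 of 13 genes with a value, 1 lower (*EPCAM*, -2.31, adjusted p = 0.0411), 1 higher (*KRT8*, 1.01, adjusted p = 0.0449) and 8 not passing (limma), and summed to 2417 to 5298 in the wild-type and 4651 to 4828 in the edited libraries. Most of the luminal sum was *KRT7*, also named after its values were seen, at 4100 and 1538 in the wild-type and 3584 and 3842 in the edited libraries. Of 12 fibroblast markers 4 had a value (*COL1A1*, *DCN*, *FAP* and *FBLN1*), with sums of 249 to 352 in the wild-type and 259 to 463 in the edited libraries, and *COL1A1* fell (-2.06, adjusted p = 0.0420, limma). The other 3 fibroblast markers did not pass, and their values are given after they were seen. *FAP* (0.085 ± 1.01, SE) and *FBLN1* (0.0064 ± 0.24, SE) had log2 fold changes near 0 and overlapping groups. The matrix proteoglycan *DCN* was at 7.42 and 1.09 in wild-type cells and 15.1 and 105 after editing, with no overlap (3.30, adjusted p = 0.0974, limma). Of 8 leukocyte markers 4 had a value, summing to 72.8 to 91.5 in the wild-type and 42.6 to 60.6 in the edited libraries. *ITGAM* fell from 16.3 and 41.7 in the wild-type to 0.309 and 1.66 in the edited libraries (-3.87, adjusted p = 0.0264, limma). The other 3 did not pass and were named after their values were seen. *CD68*, the largest part of each sum, was at 39.8 and 37.5 in the wild-type and 32.7 and 49.1 in the edited libraries, with overlapping groups. Adjusted p was 0.422 for *CD14* and 0.102 for *CSF1R* (limma). None of the 8 endothelial markers had a row in the table. The part of these shifts in the values of the squamous genes was not tested.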

How the data were processed

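Poly(A)-selected RNA of 2 edited and 2 wild-type MCF12A cultures was sequenced single-end at a read length of 75 bases. The deposited table lists 16811 genes by symbol. Its values are a signal normalized by the authors and are neither whole nor equal in sum between libraries. Scaling for transcript length was inferred from the values and is not stated in the sources used here. HISAT2, Salmon and hg38 are named in the submitters' processing notes without their roles; the normalization formula and annotation are not given in the sources used here. The genes and lists were chosen with earlier results of these data known.

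Sample titles gave the group and replicate number of each library. On log2(value + 1), limma 3.58.1 (lmFit and eBayes with trend, R 4.3.3) tested genes whose mean reached 10, with no block, Benjamini-Hochberg adjustment and a threshold of 0.05. Weaker genes were taken from the same fit on all genes. The test was tried on simulated data first. P-values measure the spread between these libraries only. All measured genes of the group were described. From each other list, and from the epidermal differentiation complex, up to 4 genes past the threshold with the largest absolute fold change were named, and any other gene is marked as chosen after its values were seen.

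The depth was estimated per library as the step, per kb of transcript, that made the most values of single-transcript genes (861 genes, over 200 bases in GENCODE version 44) whole within 0.06 of a read. This held for 33.1% to 37.8% of those under 8.4 reads, so whole reads were not recovered and read numbers are approximate. Positions and promoters came from RefSeq on GRCh38; 93.3% of the tested genes matched by symbol or synonym. Python 3.11.15, pandas 2.3.3, numpy 2.4.6 and scipy 1.17.1 were used. Alternatives in pseudocount, filter, scaling, block, trend and threshold were computed, as were fits that omit one library at a time.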

Additional observations from a re-analysis of the deposited data

How the results depend on the processing

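The 4 calls among the 8 measured genes were kept in number by 8 alternatives with all 4 libraries, and 3 remained with no filter on low values. With the replicate block 2 genes of the group passed (*SPRR1A*, adjusted p = 0.0409, and *SPRR1B*, adjusted p = 0.0359, limma), 10 of 84 related genes (22 without the block) and 133 of 9590 genes (680 without it). The labels give no meaning to the shared numbers, and deviations of same-numbered libraries correlated at -0.138 over 9590 genes. The crossed pairing, chosen after seeing the data like cyclic loess, gave 4 and 28, beside 1002 of 9590 genes. At an adjusted p under 0.001, 0 of the 8 and 0 of the 84 passed (6 and 53 at an unadjusted p under 0.05, as for 3095 of the 9590 and 4909 of all 16811 genes). With each library left out in turn, 0 to 4 genes of the group and 0 to 28 related genes passed, beside 424 or 1431 of the 9590 genes when the edited library omitted was replicate 1 or 2, and 47 or 4 when it was the wild-type one, and the median log2 fold change ran from -2.34 to -1.70. It was -1.27 with a pseudocount of 5. Over 112 combinations of gene and alternative, 95 kept direction and side of the threshold, 13 lost the call and 4 turned. Only the 4 genes that passed could lose a call, so all 13 losses fell on *SPRR1B*, *SPRR1A*, *TGM1* and *CSTA*. Many of the 95 were genes that stayed short of the threshold. The filter alternatives could not move *IVL*, *SPRR1A* and *SBSN*, which were fitted among all genes in each. The turned ones were all *SBSN*, at -0.027 with a pseudocount of 5, -0.090 with equal library totals, -0.099 without edited replicate 2 and -0.71 without wild-type replicate 1 (0.75 without wild-type replicate 2). The lone library of a group was assumed to vary like the others. Equal library totals moved the median of all 9590 genes from 0.087 to -0.029. The cause of these changes was not tested.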

Other observations

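Some epithelial genes of the lists differed widely between replicates of one group and were named after their values were seen. The protease inhibitor *PI3* (elafin) was at 13.5 and 407 in edited replicates 1 and 2, against wild-type values of 415 and 209 (adjusted p = 0.399, limma). The ammonium transporter *RHCG* was at 0.607 and 21.8 after editing against wild-type values of 161 and 252, with a log2 fold change of -5.06 that did not pass (adjusted p = 0.0595, limma). *KRT16* was at 14.9 and 7.48 after editing against 49.8 and 289 in wild-type cells, and *KRT13* at 0.621 and 0 against 6.51 and 51.1 (adjusted p = 0.0635 for each, limma). The late keratinocyte caspase *CASP14* was at 3.78 and 8.93 after editing against 28.6 and 167 in wild-type cells (adjusted p = 0.0670, limma).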
